A study of Mus musculus with 20 samples.

Results

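The genes of the cytosolic ribosomal proteins, which form the protein part of the ribosomes that translate nuclear-encoded mRNAs, were measured in mouse bone marrow-derived macrophages treated with ligands of 2 nuclear receptors. Members were taken by a rule on their names, and were chosen with earlier results of these data known. A gene belonged where its symbol was Rpl or Rps with a number and at most 1 trailing letter, or was Rplp0, Rplp1, Rplp2 or Rpsa, and pseudogenes named with -ps and genes named Rps6k or Rps19bp were left out. The rule took 83 of the 46318 genes in the files, 51 of the large subunit and 32 of the small subunit. The macrophages were grown from marrow of C57BL/6 female mice with recombinant M-CSF (printed as M-DSF in the labels). They were kept for 24 h with DMSO (the solvent), with DSHN at 50 µM, with GW3965 at 1 µM, or with both compounds at these doses, in 5 biological replicates per treatment. Per the series' description, GW3965 activates LXR, DSHN activates NR0B2, and NR0B2 is taken to inhibit LXR. The labels do not say whether replicates came from separate animals, so the p-values measure the spread between these cultures. The DMSO libraries are shared by 3 of the comparisons below, which are therefore not independent of each other.

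A ribosome joins a small subunit, which holds the mRNA and reads its codons, to a large subunit, which links the amino acids. Most of its proteins are single-copy genes in their active form, with many silent processed copies in the genome, and their mRNAs are short and very abundant. These mRNAs begin with a C followed by an unbroken stretch of pyrimidines, the TOP motif, through which mTORC1 signalling and the RNA-binding protein LARP1 set how much of them is translated. LXR is a receptor for oxidised cholesterol that turns on cholesterol export genes in macrophages.

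Library totals ran from 16855029 to 23796561 counts, and 13307 genes had enough counts to be tested. All 8 macrophage markers were detected, with a summed level of 15971 to 19202 CPM (counts scaled to the TMM-adjusted library size) over the 20 libraries. The summed neutrophil, T and NK cell, erythroid and dendritic cell lists stayed at or below 1.94 CPM in every library, with the 4 haemoglobin genes at 0. The fibroblast and stroma list, 6 genes (Col1a1, Col1a2, Col3a1, Dcn, Pdgfra and Pdgfrb) of which 5 were tested, summed to 2283 to 2877 CPM with DMSO and 1905 to 2324 CPM with both compounds.

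Of the 83 genes, 78 passed the filter on low counts, 47 of the large and 31 of the small subunit. Those that did not included Rpl10l, a retrogene copy of Rpl10 with no count in any library, Rpl3l, the striated muscle paralog of Rpl3 with 18 counts over all 20 libraries, Rpl28 with 54 and Rpl32l with 83. For Rpl28, the low count lies beside an overlap in the annotation. In the files' exon coordinates, 89.3% of its exon bases also belong to an unnamed gene on the opposite strand, and the recorded counting commands hold no strand option. Reads in shared bases cannot be given to 1 gene without strand, so the level of Rpl28 is not known from the files. Among tested genes, Rpl5 shared 47.6%, Rpsa 34.2%, Rpl31 33.3%, Rps25 30.1% and Rpl19 25.2% of their exon bases with a gene on the other strand. The files also list 226 ribosomal protein pseudogene entries, 162 of them with counts, and together they held 0.00441% to 0.00732% of a library. The recorded counting commands hold no multi-mapping option, and by default featureCounts does not count reads that align to several places. Reads that fit a gene and its processed copies equally would then be missing from both. The levels of members with such copies may therefore be understated, by an amount not known from the files. This also limits the comparison of levels between members and between subunits below.

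Of the 83 ribosomal protein genes, 70 exceeded 100 CPM in every library, and together the 83 took 2.57% to 2.80% of the counts of DMSO libraries. The share of all tested genes above 100 CPM was not computed, so these levels are not ranked against other genes. Per kilobase of exon, the tested genes had a median level of 338 CPM per kb with DMSO, with 309 for the large and 429 for the small subunit. The highest level per kb was that of Rplp1, an acidic protein of the ribosomal stalk, with a mean of 1004 CPM per kb (range 955 to 1071, n = 5). Rpl32 followed with 916 (885 to 957), then Rpl12, a protein at the base of the stalk, with 843 (818 to 881), Rps29 with 824 (779.9 to 892) and Rpl10, which helps form the site where the subunits meet, with 784 (764 to 822). The ranges of neighbours in this order overlapped in 61 of 77 pairs, so most ranks are not separated by the spread between cultures. At the low end stood Rps15a with 60.3 CPM per kb, Rps27l with 32.4, Rpl39l with 7.43, Rps4l with 4.75 and Rpl6l with 1.22. Of these, Rps4l and Rpl6l are annotated as pseudogenes, while Rps27l and Rpl39l are coding paralogs of Rps27 and Rpl39. The low ranks of Rps15a and Rps27l lie beside exon lengths of 5136 and 2748 bases, which sum all annotated exons, against 640 and 499 bases for their main transcripts in GENCODE M21, so their levels per kb are understated. In all, 11 tested members had an exon length of more than 2 times that of the main transcript.

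**Figure D1:**
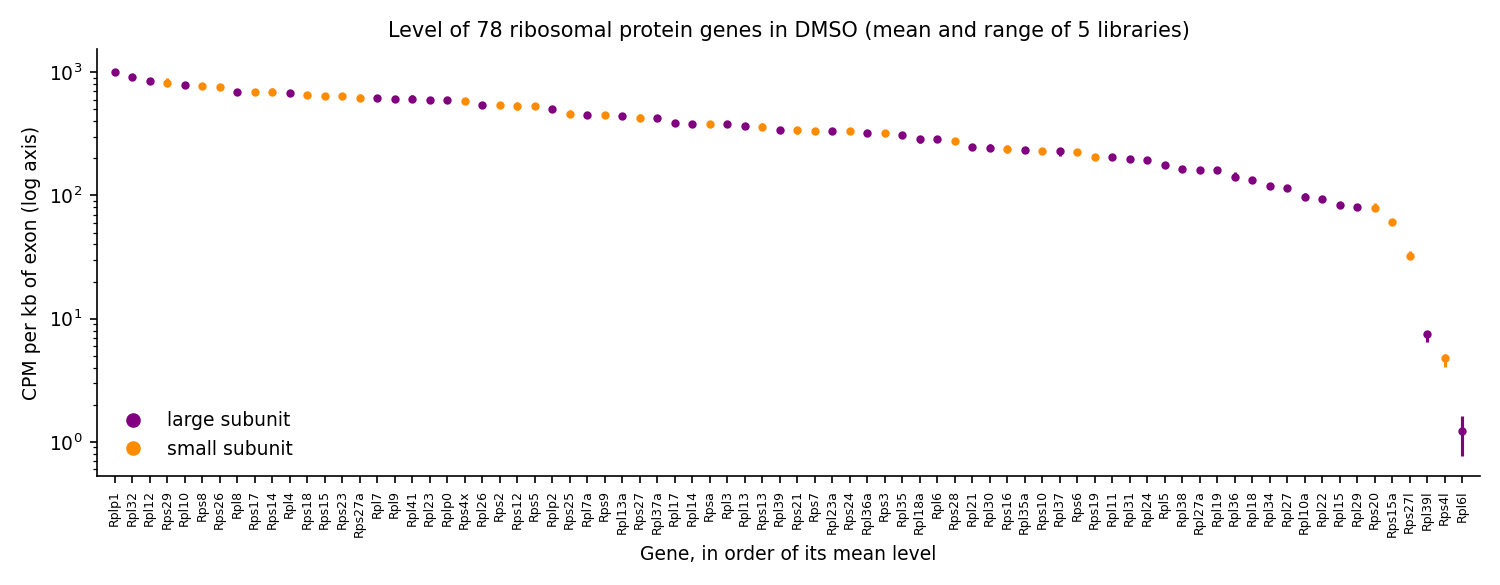
Level of the 78 tested ribosomal protein genes in the 5 DMSO libraries, in CPM per kb of exon on a log axis, as the mean (point) and range (line), coloured by subunit. Most genes lie between 100 and 1004 CPM per kb with overlapping neighbours, and Rpl39l, Rps4l and Rpl6l lie far below.

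The start regions of members carry the sequence marks for which this gene family is known, and are shown here because the members moved together in the comparisons below. RefSeq promoter windows (GRCm38.p6, 250 bases before to 50 after each annotated start) were held for 61 of the 83 genes and 27025 genes in all. A run of C followed by at least 4 C or T, beginning within 5 bases of the start on the transcribed strand, was present in 29 of the 61 members (47.5%) and in 21.2% of all genes. In the lines below, each sequence runs from 40 bases before to 20 after the first annotated start, 5′ to 3′, with the pyrimidine run in capitals.
Rpl38 (chr11:114668540-114668599, plus strand): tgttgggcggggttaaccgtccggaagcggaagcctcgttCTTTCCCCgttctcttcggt
Rplp2 (chr7:141447611-141447670, plus strand): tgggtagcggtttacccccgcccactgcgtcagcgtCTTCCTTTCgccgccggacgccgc
Rps21 (chr2:180257339-180257398, plus strand): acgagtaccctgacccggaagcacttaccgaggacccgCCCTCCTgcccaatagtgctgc
Rps6 (chr4:86857348-86857407, minus strand): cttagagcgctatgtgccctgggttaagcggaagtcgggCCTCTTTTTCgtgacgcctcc
Rps27l (chr9:66946046-66946105, plus strand): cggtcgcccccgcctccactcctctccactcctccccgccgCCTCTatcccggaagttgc
Rpl10 (chrX:74270776-74270835, plus strand): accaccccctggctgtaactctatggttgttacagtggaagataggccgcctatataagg
Rplp0 (chr5:115559427-115559486, plus strand): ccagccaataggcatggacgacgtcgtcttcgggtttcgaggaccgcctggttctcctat
The first 5 carry a run and the last 2, Rpl10 and Rplp0, carry none by this rule at the annotated start. The heptamer CCGGAAG, searched on both strands of the window, was present in 25 of the 61 members (41.0%) against 9.93% of all genes, and it stands close to the start in several of them, as in the following lines, where it alone is in capitals.
Rpl38: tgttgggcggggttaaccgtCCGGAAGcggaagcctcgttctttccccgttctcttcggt
Rps21: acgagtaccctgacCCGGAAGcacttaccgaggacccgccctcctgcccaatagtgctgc
Rps27l: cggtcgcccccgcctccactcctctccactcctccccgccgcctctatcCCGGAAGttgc
Rpl11 (chr4:136053374-136053433, minus strand): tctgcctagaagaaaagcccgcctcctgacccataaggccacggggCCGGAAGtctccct
AAGATGGC was present in 5 of 61 members (8.20%, against 3.19% of all genes) and GGGCGG in 36 (59.0%, against 38.2%), both searched on both strands. TATAAA was present in 7 (11.5%, against 15.7%) and CCAAT in 19 (31.1%, against 41.1%). These matches are letters in a window and say nothing on their own about binding.

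GW3965 alone was accompanied by a small rise across nearly the whole family. With GW3965, 73 of the 78 tested genes were higher than with DMSO and none was lower, against 23.6% higher and 23% lower of all tested genes (edgeR quasi-likelihood test, Benjamini-Hochberg adjusted p under 0.05, which is the call used throughout). The median log2 fold change was 0.21, a 1.15-fold difference, and it was the same for the large subunit (44 of 47 higher) and the small subunit (29 of 31 higher). In 69 of the 78 genes all 5 GW3965 libraries lay above all 5 DMSO libraries, which held for 16.6% of all tested genes. Members took 2.57% to 2.80% of the counts of DMSO libraries (mean 2.67% ± 0.0865, SD, n = 5) and 2.86% to 3.05% of GW3965 libraries (2.94% ± 0.0816), and these ranges did not overlap. The B cell list, in which Pax5 was at 0 in every library, had a summed level of 25.1 to 51.4 CPM in the DMSO libraries and 61.6 to 89.0 CPM in the GW3965 libraries, without overlap. DSHN libraries had 57.9 to 67.4 CPM and those with both compounds 54.4 to 88.1 CPM. Its 2 tested genes were called higher with GW3965 and with both, and its part in the rise of the ribosomal protein genes was not tested. Bulk counts cannot tell a change in the number of cells of a type from a change in RNA per cell.

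Rpl10 had 612, 626, 653, 617 and 607 CPM in the 5 DMSO libraries and 793, 790.4, 783, 718 and 759.9 CPM in the 5 GW3965 libraries. Every GW3965 library was above every DMSO library, and the gene rose by 0.30 (SE 0.03, adjusted p = 6.88e-08) on the log2 scale. Rpl37a, a zinc-binding protein of the large subunit, had 243, 251, 263, 253 and 239 CPM with DMSO and 314, 315, 325, 292 and 297 CPM with GW3965, again without overlap, and rose by 0.30 (SE 0.05, adjusted p = 7.30e-06). Rps21, a small protein of the small subunit, rose by 0.30 (SE 0.05, adjusted p = 2.17e-05). These 3 had the largest called differences, so no called member was far above the family's median. The smallest called differences were those of Rpl8 (0.10, SE 0.03, adjusted p = 0.0117), Rpl15 (0.10, SE 0.04, adjusted p = 0.0255) and Rpsa (0.11, SE 0.04, adjusted p = 0.0213). The calls of Rpl15 and Rpsa were lost without DMSO replicate 1 or GW3965 replicate 1, 2 or 3, and that of Rpl15 also without GW3965 replicate 5, with adjusted p up to 0.0904 and 0.0780 (edgeR). The 5 tested genes without a call were Rpl18, Rpl39l, Rps27l, Rps4l and Rpl6l, of which the last 4 are the paralogs or pseudogenes at the low end of the levels.

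Genes with well-known further roles were among those that rose. Rps6, the substrate of S6 kinases downstream of mTORC1, rose by 0.15 (SE 0.04, adjusted p = 0.00128) with GW3965, and Rpl13a, which is also part of an interferon-responsive translation silencing complex, by 0.21 (SE 0.04, adjusted p = 1.64e-04). Rpl5 and Rpl11, which bind MDM2 when ribosome assembly fails, rose by 0.15 (SE 0.04, adjusted p = 0.00147) and by 0.15 (SE 0.04, adjusted p = 0.00145). The stalk genes rose by 0.19 (SE 0.04, adjusted p = 1.00e-04) for Rplp0, 0.25 (SE 0.05, adjusted p = 5.88e-05) for Rplp1 and 0.23 (SE 0.04, adjusted p = 1.53e-04) for Rplp2. Rps27a, which encodes ubiquitin fused to a small subunit protein, rose by 0.18 (SE 0.04, adjusted p = 0.00138), and Rps19, whose human counterpart is the gene most often mutated in Diamond-Blackfan anaemia, by 0.19 (SE 0.05, adjusted p = 0.0012). Rpl22 and Rpl38 rose by 0.25 (SE 0.04, adjusted p = 6.13e-06) and 0.26 (SE 0.05, adjusted p = 4.37e-05).

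Members are short genes, with a median exon length of 860 bases (390 to 5136) against 3758 bases over all tested genes, so they were set beside genes of like exon length. Of 2386 other tested genes between 477 and 1875 bases (the 10th to 90th percentile of members), 578 were higher with GW3965 and 376 lower, with a median log2 fold change of 0.05 against 0.21 for members. Taken by length, the 22 members of 500 to 750 bases had a median of 0.21 against 0.12 in 269 other genes, and the 13 members of 1000 to 1500 bases had 0.21 against 0.05 in 931. The trend with length was also removed per library by offsets from a smooth curve of counts on log2 exon length over all tested genes, called the length correction here. With it, 67 members were higher with GW3965 and none lower, against 24.5% higher and 23.3% lower of all tested genes, and all 67 were among the 73. The median became 0.15. The slope of counts on log2 exon length (log2 units per doubling of length) overlapped between GW3965 libraries, 0.026 to 0.046, and DMSO libraries, 0.032 to 0.063.

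**Figure D2:**
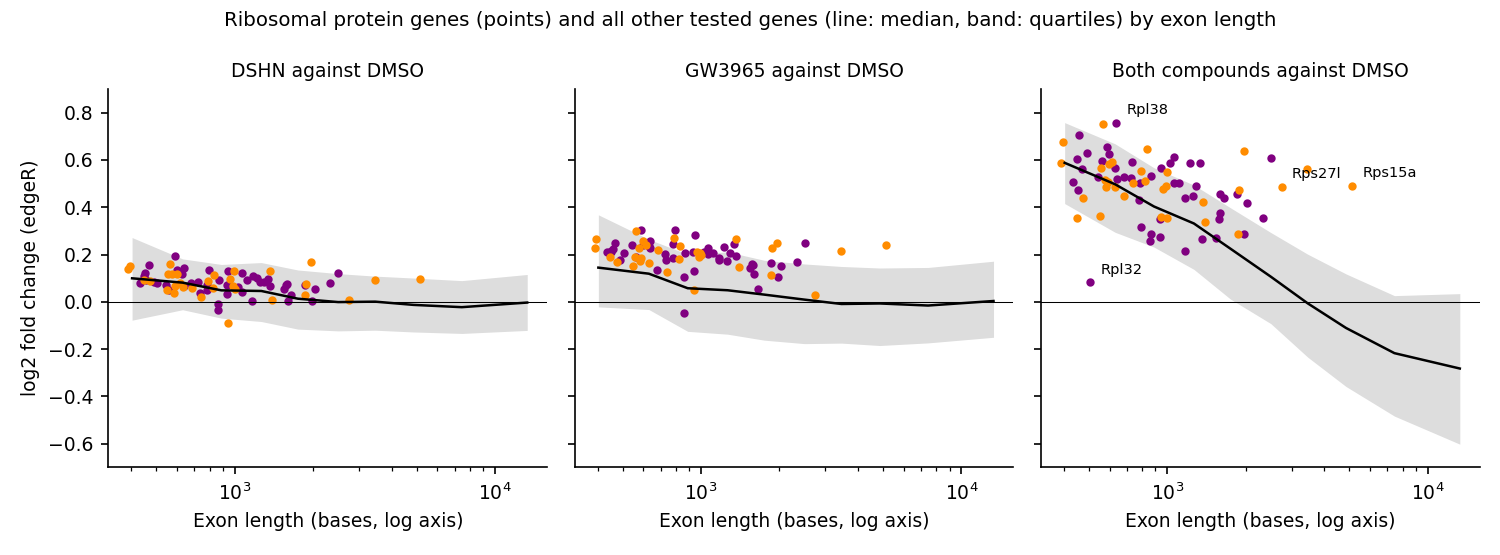
log2 fold change (edgeR) of the 78 ribosomal protein genes (points, large subunit in purple and small in orange) against exon length in bases on a log axis, for each treatment against DMSO, with the median (line) and quartiles (band) of all other tested genes by length. With GW3965 most members lie above the line at every length, while with both compounds the line itself rises to 0.59 for the shortest genes and most short members lie near it.

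DSHN alone gave fewer calls and smaller differences. Against DMSO, 19 of 78 genes were higher and none lower, against 14.1% higher and 14.8% lower of all tested genes, and the median log2 fold change was 0.08 (1.06-fold). The 19 genes were also higher with GW3965. In only 1 gene, Rpl10, did all DSHN libraries lie above all DMSO libraries, against 9% of all tested genes. Rpl10 had 692, 691, 707, 674 and 659 CPM with DSHN and rose by 0.14 (SE 0.03, adjusted p = 0.00401), a call not kept with the length correction (0.09, adjusted p = 0.0654). Rpl37a had 306, 298, 301, 267 and 255 CPM with DSHN and rose by 0.19 (SE 0.05, adjusted p = 0.00283). Of these values, 267 lies close to the DMSO range and 255 within it. Rps24, an essential small subunit protein whose human gene is mutated in Diamond-Blackfan anaemia, rose by 0.17 (SE 0.05, adjusted p = 0.0065). Rps6 had a difference that did not pass the test (0.01, SE 0.04, adjusted p = 0.888).

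The DSHN libraries were split among themselves. Members took 2.57% to 2.92% of their counts (mean 2.78% ± 0.163). Against the average over the 20 libraries, the median member level was −0.06, −0.07 and −0.05 (log2) in DSHN replicates 1, 2 and 3 and −0.17 and −0.22 in replicates 4 and 5, the latter 2 within the DMSO range of −0.25 to −0.12. The slope on log2 exon length was 0.0057, 0.021 and 0.025 in replicates 1 to 3 and 0.055 and 0.063 in replicates 4 and 5. The count of 19 fell to 6 without DMSO replicate 1, 9 without DMSO replicate 5, 8 without DSHN replicate 1 or 2 and 6 without DSHN replicate 3, and rose to 29 without DSHN replicate 5. With the length correction, 9 members were higher and none lower, against 15.1% higher and 14.8% lower of all tested genes, with a median of 0.04. Among the 2386 genes of like exon length the median was 0.04 before the correction and 0.00 after it.

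**Figure D3:**
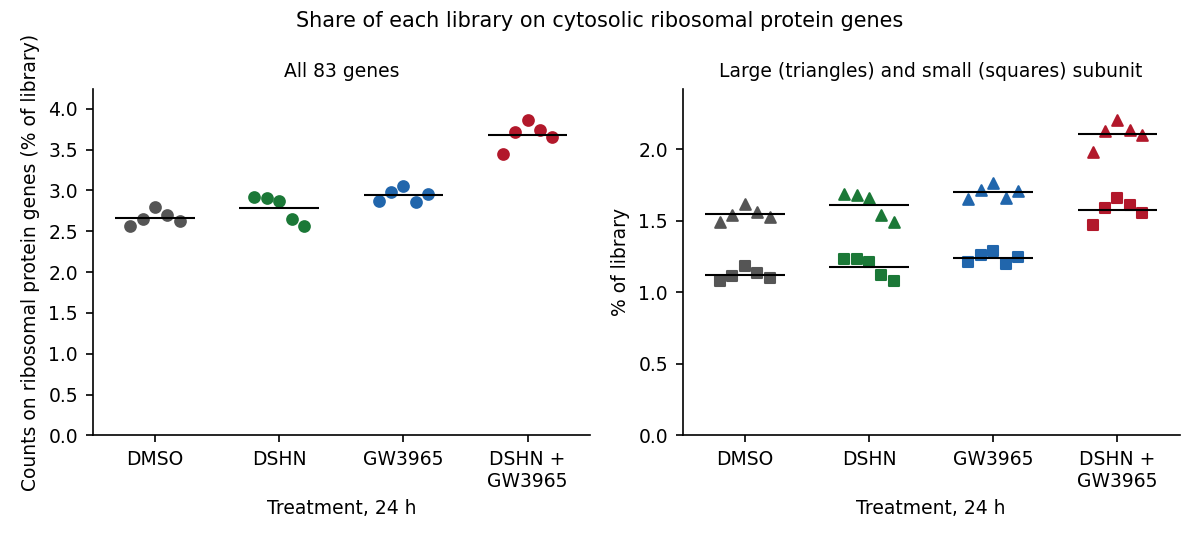
Share of each library's counts that fell on the 83 ribosomal protein genes (left) and on the large (triangles) and small (squares) subunit genes (right), in percent, by treatment, with 1 point per library and the mean of 5 as a line. DMSO libraries lie at 2.57% to 2.80% and libraries with both compounds at 3.45% to 3.86%, and DSHN libraries fall into a higher 3 and a lower 2.

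With both compounds the family stood highest. Members took 3.45% to 3.86% of the counts (mean 3.68% ± 0.152), above all 15 other libraries, and 77 of 78 genes were higher than with DMSO and none lower, against 31.9% higher and 32.9% lower of all tested genes. The median log2 fold change was 0.50 (1.42-fold), with 0.50 for the large and 0.49 for the small subunit. In 75 genes every library with both compounds lay above every DMSO library, which held for 23.9% of all tested genes. The ratio of large to small subunit counts was 1.33 to 1.35 with both compounds and 1.37 to 1.39 with DMSO.

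Rpl38, a large subunit protein needed in mice for translation of Hox mRNAs, had 106, 99.0, 109.7, 105 and 103 CPM with DMSO, 125, 126, 132, 123 and 118 CPM with GW3965 and 164, 183, 187, 180.1 and 169 CPM with both. All libraries with both compounds lay above all others, and the gene rose by 0.76 (SE 0.05, adjusted p = 1.94e-13) on the log2 scale against DMSO. Rplp2, an acidic stalk protein that recruits elongation factors, had 224, 219, 242, 241 and 221 CPM with DMSO, 267, 271, 283, 255 and 266 CPM with GW3965 and 350.3, 389, 399.6, 384 and 348 CPM with both, and rose by 0.71 (SE 0.04, adjusted p = 4.76e-13) against DMSO. Rps21 had 178, 186, 203, 198 and 186 CPM with DMSO and 291, 321, 348, 329.5 and 312 CPM with both, without overlap, and rose by 0.75 (SE 0.05, adjusted p = 1.50e-12). These 3 were the largest differences. Their exon lengths are short, at 636 bases for Rpl38, 457 for Rplp2 and 564 for Rps21. Other genes of 500 bases or less had a median of 0.59 in this comparison, and those of 500 to 750 bases 0.50. Rpl38, Rplp2 and Rps21 all carry a pyrimidine run in the sequences above. Over the family, however, the 27 tested members with a run had a median of 0.50 and the 30 with a promoter entry and no run had 0.49, and with GW3965 the medians were 0.21 and 0.20. At the other end, Rpl29 rose by 0.22 (SE 0.04, adjusted p = 4.16e-05), Rpl39l by 0.26 (SE 0.09, adjusted p = 0.0155) and Rplp0, the stalk's scaffold protein, by 0.27 (SE 0.04, adjusted p = 5.69e-07). With the exon length correction these 3 had values of −0.094, −0.12 and −0.0053, none of them called. The call of Rpl39l was also lost without DMSO replicate 2 (adjusted p = 0.0558, edgeR). Rps6 rose by 0.34 (SE 0.04, adjusted p = 4.99e-09) and Rpl13a by 0.59 (SE 0.04, adjusted p = 5.62e-12).

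**Figure D4:**
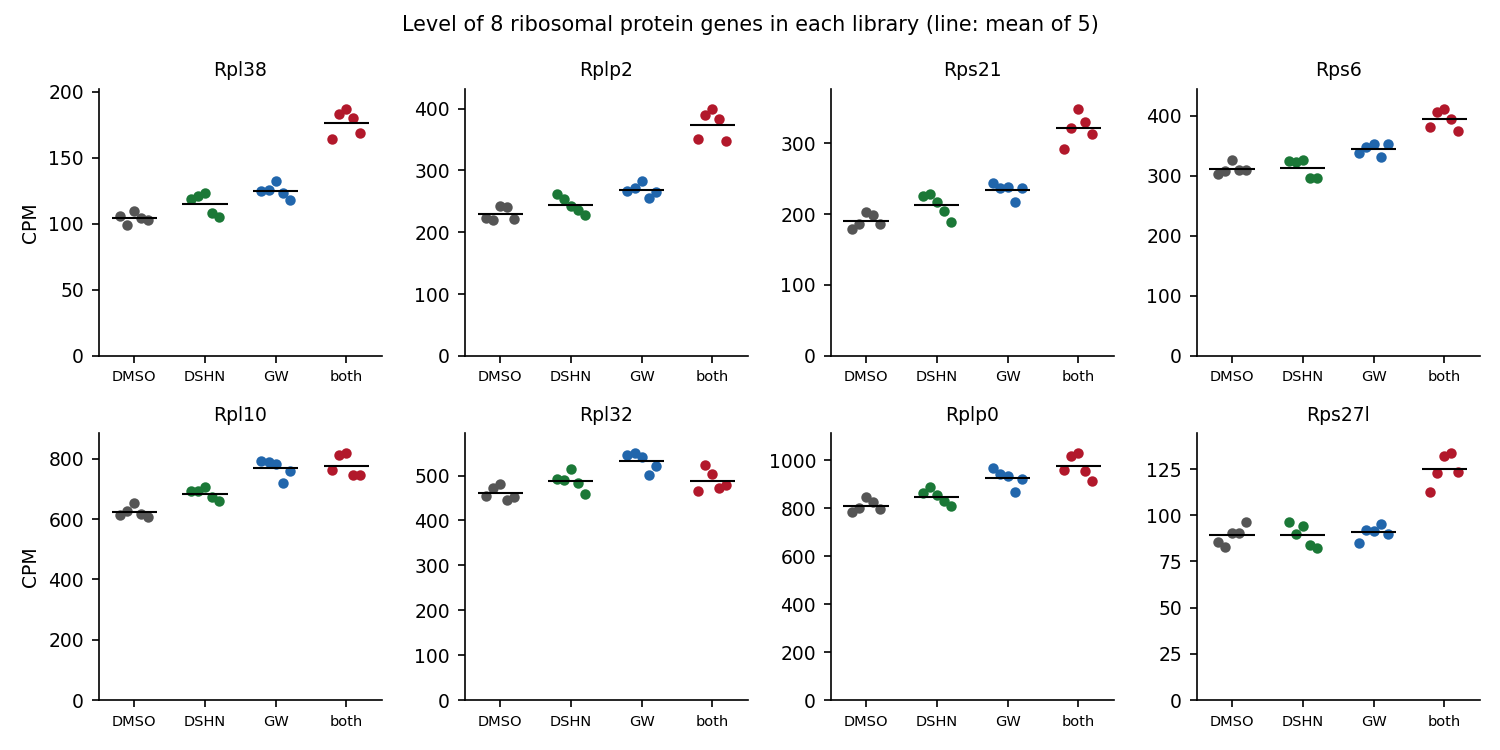
Level in CPM of 8 ribosomal protein genes in each of the 20 libraries by treatment (GW, GW3965), with 1 point per library and the mean of 5 as a line. Rpl38, Rplp2, Rps21 and Rps6 are highest with both compounds, Rpl32 is highest with GW3965 alone, Rpl10 is level between GW3965 and both, and Rps27l stands higher in the libraries with both.

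The trend with exon length was largest in the libraries with both compounds, and genes of like length were mostly higher there as well. The slope was −0.124 to −0.094 in these 5 libraries and 0.0057 to 0.063 in the other 15. Of the 2386 genes of like exon length, 1454 were higher with both compounds and 147 lower, with a median of 0.32 against 0.50 for members. For genes of 500 bases or less, 10 members had a median of 0.57 and 125 other genes had 0.59. For 500 to 750 bases the medians were 0.53 in 22 members and 0.50 in 269 others, and for 1000 to 1500 bases 0.49 in 13 and 0.33 in 931. With the length correction, 52 members were higher and 5 lower, against 30.2% higher and 28.2% lower of all tested genes, and the median fell to 0.13. The 5 lower were Rpl32 (log2 fold change −0.39), Rps26, Rps18, Rpl8 and Rpl7, of which all but Rpl32 were called higher without the correction. The highest corrected values were Rps15a (0.63), Rps20 (0.58) and Rpl22 (0.52). The exon length of Rps15a and Rpl22 in the files is likewise more than 2 times that of their main transcript. With transcript lengths in its place Rps15a had 0.12 and Rpl22 0.21. Rps20, with an exon length of 3446 bases, had 0.56 without the correction. Other genes of 3000 to 4000 bases had a median of −0.0063, so the correction hardly changed its value. A value of Rps20 on transcript length is not given here. The share of mitochondrial rRNA and tRNA counts was 0.171% to 0.211% with both compounds and 0.098% to 0.117% with DMSO. All 4 genes of the RNA quality list (mt-Rnr1, mt-Rnr2, Malat1 and Neat1) were called higher, with a summed level of 2297 to 2988 CPM against 1307 to 1706 CPM. All 5 tested fibroblast and stroma markers were called lower, and 3 of them with the length correction. Of the 8 macrophage markers, 5 were called lower and 2 higher, and 7 lower and 1 higher with the length correction. The part of these in the rise of the ribosomal protein genes was not tested.

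**Figure D5:**
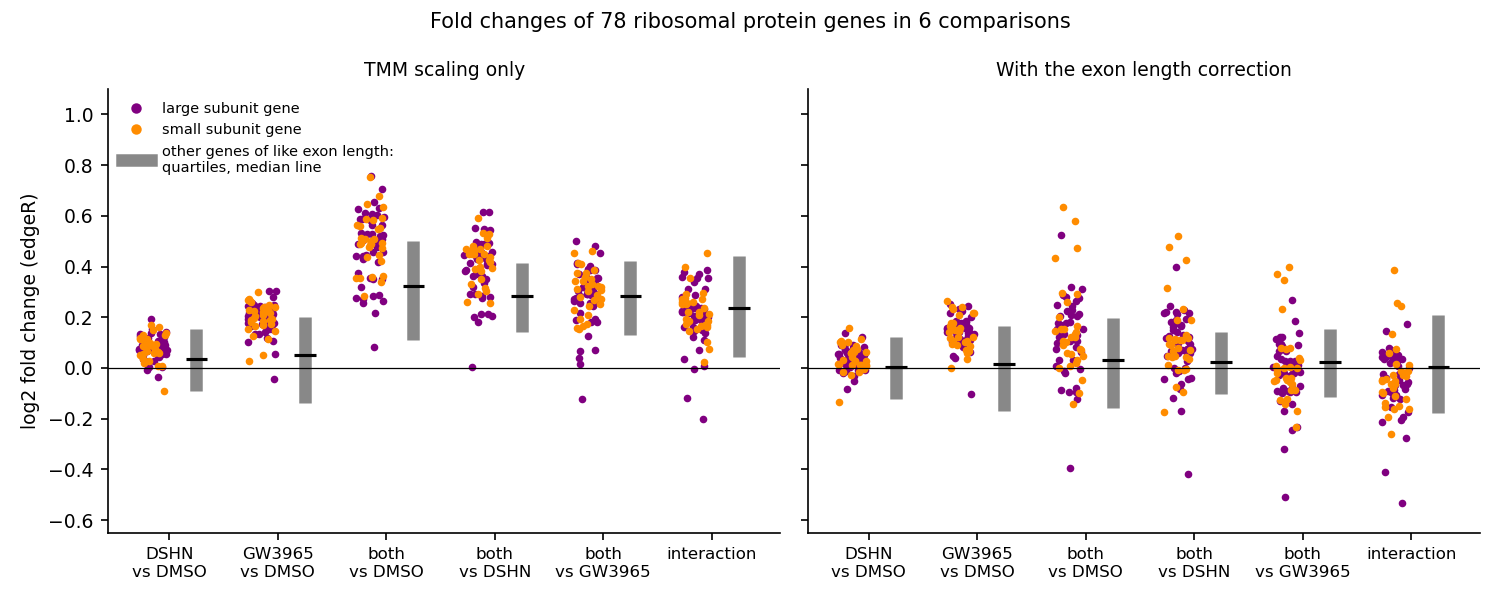
log2 fold changes (edgeR) of the 78 ribosomal protein genes (points, by subunit) in 6 comparisons, without (left) and with (right) the exon length correction, beside the quartiles (grey bar) and median (black line) of 2386 other genes of like exon length. With the correction the members keep a median of 0.15 for GW3965 against DMSO and lie around 0 for both compounds against GW3965.

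Set against GW3965 alone, the combination asks what DSHN adds to LXR activation. Without the correction 72 members were higher and 1, Rpl32, lower, against 28.3% higher and 29.5% lower of all tested genes, with a median of 0.30, and in 70 members the groups did not overlap, against 19.8% of all tested genes. Genes of like exon length had a median of 0.28. With the length correction 15 members were higher and 20 lower, against 23.8% higher and 23.5% lower of all tested genes, and the median was −0.01. Against DSHN alone, 76 members were higher with both compounds and none lower, against 28.6% higher and 29.5% lower of all tested genes, with a median of 0.43 against 0.28 in genes of like length. In 75 members the groups did not overlap, against 19.8% of all tested genes. With the length correction 39 were higher and 7 lower, against 23.5% higher and 22.9% lower, with a median of 0.09. Rpl38 was highest in both comparisons, at 0.50 (SE 0.04, adjusted p = 7.62e-10) against GW3965 and 0.61 (SE 0.05, adjusted p = 2.53e-11) against DSHN.

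The interaction asks whether the effect of DSHN with GW3965 differs from its effect without. It passed the test as positive in 65 members and as negative in 2, against 23.7% called higher and 26.5% called lower of all tested genes, with a median of 0.22, and 0.24 in genes of like exon length. With the length correction 5 members were higher and 17 lower, against 21.5% and 22.6% of all tested genes, and the median was −0.05.

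Rpl32, a large subunit protein, had the lowest log2 fold change of the family in every comparison that involved both compounds. It had 454, 473, 482, 446 and 452 CPM with DMSO, 493, 489, 515, 484 and 459 CPM with DSHN, 545, 550.0, 542, 502 and 522 CPM with GW3965 and 465, 524, 503, 473 and 479 CPM with both. The libraries with GW3965 were above all DMSO libraries, and those with both compounds overlapped every other group. It rose by 0.21 (SE 0.04, adjusted p = 5.03e-05) with GW3965, had 0.08 (SE 0.04, adjusted p = 0.0517) with both against DMSO, and was lower with both than with GW3965, at −0.12 (SE 0.04, adjusted p = 0.00612), a call lost with scaling by total counts (−0.07). The difference of both from DMSO passed the test without DMSO replicate 3 or the combination's replicate 1, 4 or 5 (adjusted p down to 0.0211, edgeR). Its interaction was −0.20 (SE 0.05, adjusted p = 0.0021), and −0.53 with the length correction (adjusted p = 1.46e-07, edgeR). At 504 bases it is among the shorter members, and the other genes of 500 to 750 bases had a median of 0.50 with both compounds. The gene lies at chr6:115782475-115785704 on the minus strand (GRCm39, from the files).

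Rpl10 was the other member with a negative interaction. It had 762, 811, 819, 747 and 747 CPM with both compounds, a range that overlaps that of GW3965 alone, and the difference from GW3965 was 0.02 (SE 0.03, adjusted p = 0.722). Its interaction of −0.12 (SE 0.05, adjusted p = 0.0435) lost its call when any 1 of 15 of the 20 libraries was left out, with adjusted p up to 0.13 (edgeR), and was −0.41 with the length correction (adjusted p = 8.84e-07, edgeR). Rplp0 likewise did not pass the test between GW3965 and both (0.07, SE 0.04, adjusted p = 0.0966).

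Rps27l, a paralog of Rps27 that is a p53 target in human cells, had the highest interaction of the family. Its level was 85.3, 83.1, 90.5, 90.2 and 96.4 CPM with DMSO, 96.5, 89.6, 94.3, 84.1 and 82.2 CPM with DSHN, 84.8, 91.8, 91.5, 95.5 and 90.05 CPM with GW3965 and 112, 123, 132, 134 and 124 CPM with both. The first 3 groups overlapped and all libraries with both compounds lay above them. Its differences were 0.01 (SE 0.05, adjusted p = 0.949) with DSHN, 0.03 (SE 0.05, adjusted p = 0.691) with GW3965 and 0.49 (SE 0.05, adjusted p = 4.14e-09) with both, and its interaction was 0.45 (SE 0.07, adjusted p = 1.02e-05). With the length correction the interaction was 0.39 on exon length and 0.19 on transcript length (adjusted p = 4.03e-05 and 0.00272, edgeR), and on transcript length the difference from DMSO was 0.09.

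The other paralogs were low. Rpl39l, which in mice replaces Rpl39 in male germ cells, had 5.54 to 6.64 CPM with DMSO and −0.05 (SE 0.09, adjusted p = 0.721) with GW3965. Rps4l had 3.83 to 4.82 CPM with DMSO and an interaction of 0.40 (SE 0.14, adjusted p = 0.0168), which is not called with the length correction (0.13). Rpl6l rose by 0.57 (SE 0.22, adjusted p = 0.0238) with both compounds, a call lost without DMSO replicate 1, DMSO replicate 3 or the combination's replicate 5 (adjusted p up to 0.0875, edgeR).

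Genes of ribosomal proteins, and genes named as like them, that fall outside the rule were measured as well. Not all of these need encode a structural protein of the ribosome. Of 7 such genes, 5 were higher with GW3965 and 1 lower, with a median of 0.19, and 6 were higher with both compounds, with a median of 0.51. Of all tested genes, 23.6% were higher with GW3965 and 31.9% with both compounds. Corrected for length, 3 of the 7 were higher with both compounds, against 30.2% of all tested genes, and their median was 0.04. Rps3a1 rose by 0.22 (SE 0.04, adjusted p = 8.73e-05) with GW3965, Fau, which encodes a ubiquitin-like protein fused to a small subunit protein, by 0.21 (SE 0.05, adjusted p = 5.60e-04), and Rack1, a scaffold on the small subunit, by 0.18 (SE 0.04, adjusted p = 2.91e-04). Rpl22l1, the paralog of Rpl22, rose by 0.39 (SE 0.05, adjusted p = 4.18e-07), and Rpl7l1 was lower, at −0.12 (SE 0.04, adjusted p = 0.0101). Rpl36al did not pass the test (0.05, SE 0.05, adjusted p = 0.388).

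The rest of the translation system did not move as 1 block with GW3965. Of all tested genes, 23.6% were higher and 23% lower with GW3965. The 78 mitochondrial ribosomal protein genes, all tested, had 12 higher and 7 lower and a median of 0.01, while the cytosolic family had 0.21. Of 16 elongation factor and other TOP mRNA genes, 8 were higher and 5 lower, with a median of 0.07. Eef1a1, which brings aminoacyl-tRNA to the ribosome, rose by 0.22 (SE 0.03, adjusted p = 1.23e-05) and Eef2, which moves the ribosome along the mRNA, by 0.23 (SE 0.04, adjusted p = 3.43e-05). Of 33 initiation factor genes, 9 were higher (27.3%) and 12 lower (36.4%), with a median of 0.02. Of 26 genes of the mTORC1 pathway and TOP regulation, 11 were higher and 4 lower, with a median of 0.09, and Larp1 was lower, at −0.17 (SE 0.04, adjusted p = 0.00192). These and the following single genes were picked after their values were seen.

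Most ribosome assembly genes were lower in both single treatments. Of 40 ribosome biogenesis genes, which process rRNA and build the subunits in the nucleolus, 32 were lower and 1 higher with GW3965 (median −0.31), and 32 were lower and none higher with DSHN (median −0.26). The same numbers of higher and lower calls were found with the length correction. Of all tested genes, 23% were lower and 23.6% higher with GW3965, and 14.8% lower and 14.1% higher with DSHN. Nop56, a core protein of snoRNA complexes that methylate rRNA, went from 49.9 ± 6.70 CPM with DMSO to 30.0 ± 3.42 CPM with GW3965 (log2 fold change −0.73, SE 0.09, adjusted p = 1.10e-07). Fbl, the methyltransferase of these complexes, was lower, at −0.24 (SE 0.07, adjusted p = 0.00392), and so was Myc, a transcription factor that drives ribosome production, at −0.76 (SE 0.11, adjusted p = 2.89e-06). Of 17 tested genes of RNA polymerase I and 5S transcription, 8 were lower with GW3965 and 2 higher, with a median of −0.13. With both compounds, 20 of the 40 biogenesis genes were lower than with DMSO and 5 higher (median −0.16). With the length correction 28 were lower and 5 higher (median −0.24), and the medians of the single treatments were −0.33 with GW3965 and −0.27 with DSHN. Of all tested genes, 32.9% were lower and 31.9% higher with both compounds, and 28.2% and 30.2% with the correction. The interaction of the biogenesis genes was positive in 28 and negative in 2 (median 0.37), and with the length correction in 24 and 1 (median 0.33). It was positive in 23.7% and negative in 26.5% of all tested genes.

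Mitochondrial ribosomal proteins, made in the cytosol and imported, were higher with both compounds. With both compounds against DMSO, 68 of 78 were higher and 3 lower (median 0.33), and with the length correction 36 were higher and 9 lower (median 0.11). Of all tested genes, 31.9% were higher and 32.9% lower, and with the length correction 30.2% and 28.2%. Genes of like exon length had a median of 0.32 before the correction and 0.03 after it. The interaction of the mitochondrial ribosomal protein genes was positive in 60 and negative in none (median 0.31). It was positive in 23.7% and negative in 26.5% of all tested genes, and genes of like exon length had a median of 0.24. With the length correction, 31 mitochondrial ribosomal protein genes were positive and 1 negative (median 0.12), against 21.5% and 22.6% of all tested genes. The cytosolic members had 5 and 17 (median −0.05) with the length correction.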

How the data were processed

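Total RNA from bone marrow-derived macrophages was sequenced in 20 libraries. Per the file headers and labels, reads were aligned to GRCm39 and the authors counted them per gene with featureCounts 2.0.0, and STAR is named in the submitters' processing notes. The deposited values are raw counts with the summed exon length of each gene. The recorded commands hold no strand or multi-mapping option, so copies and antisense overlaps are uncertain. Rows with no gene symbol took 0.474% of counts.

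Counts were tested with edgeR 4.0.16 (R 4.3.3) on all 20 libraries. Genes passing filterByExpr (13307) were scaled by TMM and fitted by quasi-likelihood with 1 coefficient per group, with Benjamini-Hochberg adjusted p under 0.05 as the call. Alternatives used DESeq2 1.42.0 tests and size factors, limma 3.58.1 voom, total counts, other filters, each library left out, a replicate block, and per-library offsets from a spline with 5 df on log2 exon length. Offsets on GENCODE M21 transcript length, matched for 95.7% of tested genes, were added after seeing the data. The fits were tested on simulated data. Levels are CPM on TMM-scaled totals.

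Replicates were compared by a chi-square test of counts, and none of the 40 pairs agreed within sampling noise (2.47 to 13.3 per degree of freedom). Replicate numbers were not taken as pairs. The members and gene lists were chosen with earlier results of these data known. Named genes are those with a set role or paralogy, the 3 highest and 3 lowest called per comparison, the 5 highest and lowest levels per kb, the untested members, and called members against the majority, and some of these are not reported here. RefSeq promoters are from GRCm38.p6, and other coordinates from the files.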

Additional observations from a re-analysis of the deposited data

Results flagged for a closer look

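In 140 groups of 5 libraries tested for a single library far from the other 4, 3 were found, and chance gives about 1 in 20 groups. Rpl39l had 5.54 CPM in DMSO replicate 2 and 6.54 to 6.64 CPM in the other 4. Rps21 had 216.6 CPM in GW3965 replicate 4 and 236 to 244 CPM in the others. Rps6 had 327 CPM in DMSO replicate 3 and 303 to 309.99 CPM in the others.

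The effect of DSHN differed with and without GW3965 in 65 members that had a positive interaction and 2 that had a negative one (edgeR), against 23.7% and 26.5% of all tested genes. Corrected for exon length, 5 members were higher and 17 lower, with a median of −0.05. Among named genes the interaction was 0.45 for Rps27l, 0.40 for Rps4l, 0.39 for Rplp2, 0.15 for Rpsa, −0.12 for Rpl10 and −0.20 for Rpl32. That of Rpsa was lost without DMSO replicate 3 (adjusted p = 0.0590, edgeR), and that of Rpl10 without any 1 of 15 libraries.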

How the results depend on the processing

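For all 6 comparisons, the members' counts of calls stayed within 1.5 times and the direction of the median was kept with DESeq2 tests or size factors and limma voom. The same held in the 5 comparisons of groups fitted on their own groups alone, a fit not made for the interaction. With total counts, DSHN had 9 members higher, both compounds against GW3965 had 0 lower, and the interaction had 1 lower and a median of 0.29. GW3965 against DMSO then had 65 members higher and a median of 0.15, against 73 and 0.21 with TMM scaling. Without a filter and with a stricter one the interaction had 1 lower. Leaving out 1 library gave 6 to 29 members higher with DSHN and 1 to 2 lower for the interaction.

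The length correction moved most counts. In the order exon length, exon length fitted without the members, and transcript length, DSHN had 9, 9 and 5 higher. Both compounds against DMSO had 5, 5 and 2 lower, with medians of 0.13, 0.13 and 0.15. Both against GW3965 had 15, 15 and 19 higher, 20, 20 and 14 lower, and medians of −0.013, −0.015 and 0.017. Both against DSHN had 39, 40 and 50 higher, 7, 5 and 2 lower, and medians of 0.092, 0.093 and 0.12. The interaction had 5, 5 and 5 higher, 17, 17 and 9 lower, and medians of −0.048, −0.052 and −0.021. The GW3965 median was 0.15 with exon length.

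Named values that passed the test in either setting changed sign only under these corrections, given in the same order. Against DMSO with both compounds, Rpl32 had −0.39, −0.39 and −0.31, Rpl29 −0.094, −0.091 and −0.16, Rpl39l −0.12, −0.12 and −0.13, and Rpl10 −0.078, −0.074 and −0.014. Rplp0 had −0.0053 and −0.0025 under the first 2, and Rps4l −0.0022 under the first. Against GW3965, Rpl3 had −0.089, −0.090 and −0.069 and Rps4x −0.088, −0.089 and −0.11. Against DSHN, Rpl7 had −0.12, −0.11 and −0.021, Rpl10 −0.17, −0.17 and −0.11, and Rplp0 −0.045 and −0.043. The interaction of Rpsa was −0.012 and −0.013 under the first 2. The cause was not tested.

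With the replicate number as a block, members higher were 28 with DSHN, 73 with GW3965, 78 with both against DMSO, 73 (1 lower) against GW3965, 76 against DSHN and 68 (2 lower) for the interaction. The correlation of same-numbered libraries was −0.205 to 0.247 and exceeded 0.1 in 10 of 30. The 15 among DMSO, GW3965 and both compounds were positive, but no 2 groups had all 5 over 0.1, and 9 of 20 libraries best matched their own number, so the numbers were not treated as pairing. Rpl6l, Rps4l and Rpl39l have few counts, which limits their precision.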
